A study of Drosophila melanogaster with 6 samples.

Results

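The small (40S) subunit of the cytoplasmic ribosome was described through 32 of the 14012 genes of an RNA-seq table from Drosophila S2 cells. These were RpS genes and sta (stubarista, which encodes the small subunit protein RpSA), taken by a list of CG numbers, and 60 transcript rows of the table belonged to them. They were chosen by name and not by any measured value. The small subunit binds the messenger RNA and reads its codons against transfer RNAs, whereas the large (60S) subunit joins amino acids. Each of its proteins is needed once per ribosome, so the genes are read together and strongly, and in flies loss of 1 copy of many of them gives the Minute phenotype of slow development and thin bristles. Transcription of these genes in Drosophila starts at a pyrimidine-rich initiator element, and in mammals the matching stretch at the start of the messenger RNA puts its translation under control of the TOR kinase.

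S2 is a line of embryonic origin with traits of macrophage-like blood cells, used here as S2-DRSC at passages 10 to 15. The 6 libraries formed 3 groups of 2: control cells without treatment, cells given double-stranded RNA against PARP-1 (PARP1 KD), and cells given PJ34, an inhibitor of the enzymatic activity of poly(ADP-ribose) polymerases (PARylation). PARP1 KD libraries were made at 100 and 500 units of double-stranded RNA, which one description gives in nanograms and another in micrograms, and PJ34 libraries at 10 and 0.3 µM. Column names did not show which dose was which, so a number only marks the column order within a treatment, and the 2 libraries of a pair may differ by dose as well as by chance. By the labels, the controls received no unrelated double-stranded RNA, so the addition of double-stranded RNA and the loss of PARP1 cannot be told apart. Levels are FPKM (fragments per kilobase, relative to all fragments that mapped in the library) summed over the transcripts of a gene, and changes are differences in log2(FPKM + 1) between group means, each with its SE from limma and n = 2 libraries per group.

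The lowest values of genes with a single transcript came in steps, and their commonest ratio put the depth of the libraries between 0.883 and 1.11 times that of control library 1. Parp1, the targeted gene, was at 51.6 and 29.9 FPKM in controls, 16.7 and 10.3 after PARP1 KD, and 39.3 and 50.2 under PJ34, so both knockdown libraries lay below both controls. Of 8 markers of blood cells, srp, ush, Pxn, crq, Col4a1 and vkg lay between 1.19 and 808 FPKM, whereas Hml and NimC1 did not exceed 2.24. Among 8 markers of neurons, muscle, germ line and larval fat body the highest value was 3.79 FPKM (elav), and the other 7 stayed at or under 0.774. PJ34 library 2 stood apart, with the lowest value of each of the 6 blood cell markers that were present (srp 4.37 FPKM against 26.5 to 71.7 elsewhere), and control library 1 stood apart in the levels of the small subunit genes themselves.

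All 32 genes were abundant in all 6 libraries, from 201.5 to 21114 FPKM over 192 values, with none at 0. Their summed FPKM was 113659 and 165629 for the controls, 183581 and 186551 for PARP1 KD, and 143203 and 153878 for PJ34. As a share of the whole table this was 15.9% and 19.3% for control, 20.9% and 22.7% for PARP1 KD, and 16.8% and 15.5% for PJ34. RpS29 was the highest member in 5 of 6 libraries and RpS14b the lowest in 5 of 6. Because FPKM are relative to the library, fewer messenger RNAs per cell and more RNA from other genes cannot be told apart in these bulk samples.

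The spread among the 32 genes differed far more between libraries than their sum did. The highest member exceeded the lowest by 5.87-fold and 6.38-fold among control libraries, by 5.70-fold and 6.09-fold among PARP1 KD libraries, by 14.1-fold in PJ34 library 1, and by 105-fold in PJ34 library 2. On the log2 scale the SD over members was 0.45 and 0.69 in controls, 0.49 and 0.50 after PARP1 KD, and 0.95 and 1.77 under PJ34. The order of the members was shared closely by the PARP1 KD libraries (Spearman's rho 0.947 over 32 genes) and by the PJ34 libraries (0.904), and less by the controls (0.618). Control library 2 was ordered like PJ34 library 1 (0.905) and PARP1 KD library 1 (0.822). Control library 1 was ordered like PARP1 KD library 1 (0.819) and unlike PJ34 library 2 (0.381). Genes are not independent replicates, and points of such comparisons share library, transcript length and base composition.

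**Figure D1:**
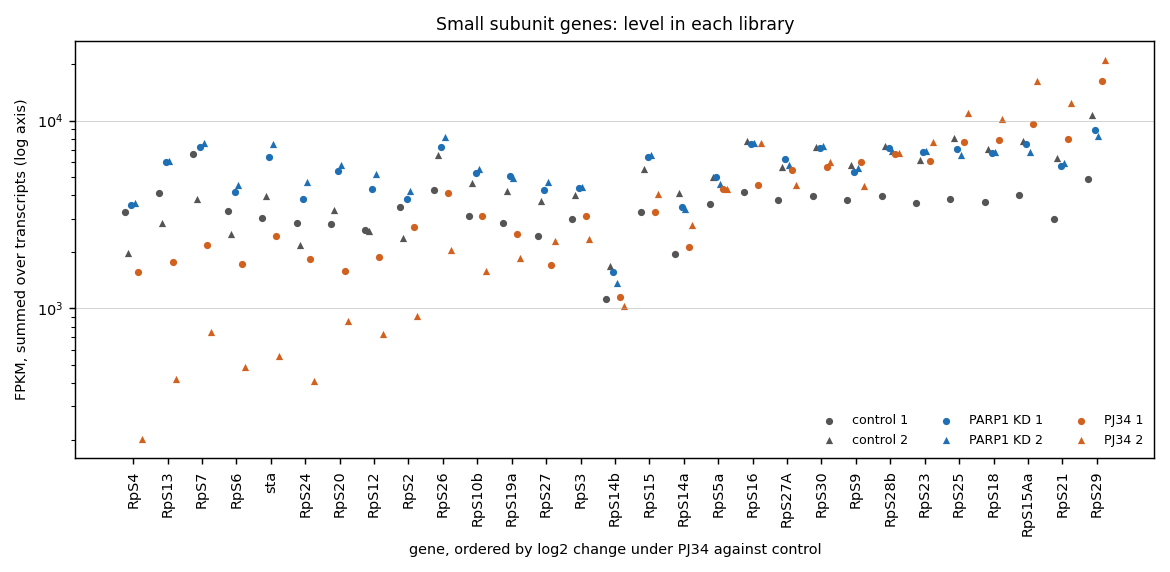
FPKM of 29 of the 32 small subunit genes (log axis), ordered by their log2 change under PJ34 against control; circles are library 1 and triangles library 2 of control (grey), PARP1 KD (blue) and PJ34 (orange). The PJ34 points run from 201.5 FPKM for RpS4 to 21114 for RpS29, whereas the PARP1 KD points of a gene lie close together and mostly at or above the controls.

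PARP1 KD was compared with control to ask which genes depend on the PARP1 protein. The fitted change was positive for all 32 genes, from 0.09 for RpS14b to 1.0 for sta with a median of 0.43, and no gene passed the test at an adjusted p under 0.05. It was positive for 32 with median centring, and for 31 with division by summed FPKM or with the length trend removed. It was positive for 17 of 32 after quantile normalization and for 18 of 32 without control library 1. Centring libraries on the small subunit median left 15 positive, but that setting removes the members' common shift by construction. Apart from that setting, the common direction thus depended on whether quantile normalization was used and on control library 1. The median over all 7308 genes tested was -0.28, so the small subunit genes lay above the bulk of the table by that measure. Of all genes, 0.0% passed in this comparison, and at an unadjusted p of at most 0.05 no member was higher or lower, beside 0.356% and 2.5% of all genes. Both PARP1 KD libraries exceeded both controls for 18 of 32 members, beside 10.5% of all genes, and lay below both for 0, beside 34.9%.

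The 5 largest positive changes were those of sta, RpS12, RpS20, RpS13 and RpS24. The first, sta (CG14792, dm3 chromosome X, 1375820 to 1377446), encodes a protein near the exit of the messenger RNA channel. It was at 3028 and 3953 FPKM in controls, 6403 and 7521 after PARP1 KD, and 2435 and 560 under PJ34. Both knockdown libraries were thus the highest and both PJ34 libraries the lowest, without overlap between the 3 groups. Its change under PARP1 KD was 1.0 (SE 0.65, adjusted p = 0.9996).

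RpS12 (CG11271, chromosome 3L), a protein of the head that in flies takes part in the elimination of cells with too few ribosomal proteins, was at 2603 and 2576 FPKM in controls, 4321 and 5166 after PARP1 KD, and 1870 and 734 under PJ34. RpS20 (CG15693, chromosome 3R, 16647900 to 16649078), another head protein, was at 2809 and 3351, 5399 and 5792, and 1577 and 854 FPKM in the same order. Their changes under PARP1 KD were 0.87 (SE 0.53) and 0.87 (SE 0.48), with the groups again not overlapping. RpS12 overlaps Zmynd10 and RpS20 overlaps CG17272 in the table, so both values are uncertain by what these neighbours contribute.

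RpS13 (CG13389, chromosome 2L, 8363691 to 8364609), an early binder of the ribosomal RNA of the body, was at 4108 and 2840 FPKM in controls, 5996 and 6098 after PARP1 KD, and 1764 and 422 under PJ34. RpS24 (CG3751), which in human cells is needed to process the precursor of 18S ribosomal RNA, was at 2840 and 2175, 3816 and 4688, and 1827 and 413 FPKM. Changes under PARP1 KD were 0.82 (SE 0.64) and 0.77 (SE 0.64). All 5 genes had adjusted p = 0.9996 in limma, and over the alternative settings their lowest adjusted p was 0.2726 (sta, without PJ34 library 1).

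Without control library 1 the median change of the 32 genes under PARP1 KD was 0.14, compared with 0.81 without control library 2. The controls lay further apart than the knockdown libraries did: 5 members differed at least 2-fold between the 2 controls, 9 between the PJ34 libraries, and none between the PARP1 KD libraries. Of all 7308 genes tested, 1788, 4165 and 12 did so in the same order, so this spread was not particular to the members.

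PJ34 was compared with control to ask which genes depend on PARylation. Fitted changes of the 32 genes ran from -2.18 for RpS4 to 1.35 for RpS29, with a median of -0.34 and an SD of 0.98 over genes. Over all genes tested the median was -1.08 and the SD was 1.09. No member passed the adjusted threshold, beside 0.643% of all genes, and at an unadjusted p of at most 0.05 there was 1 member higher and 7 lower, beside 5.84% and 25.3% of all genes. Both PJ34 libraries exceeded both controls for 5 members (15.6% of them, beside 13.1% of all genes) and lay below both for 12 members (37.5%, beside 54.1%). Both shares were near or under the background.

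**Figure D2:**
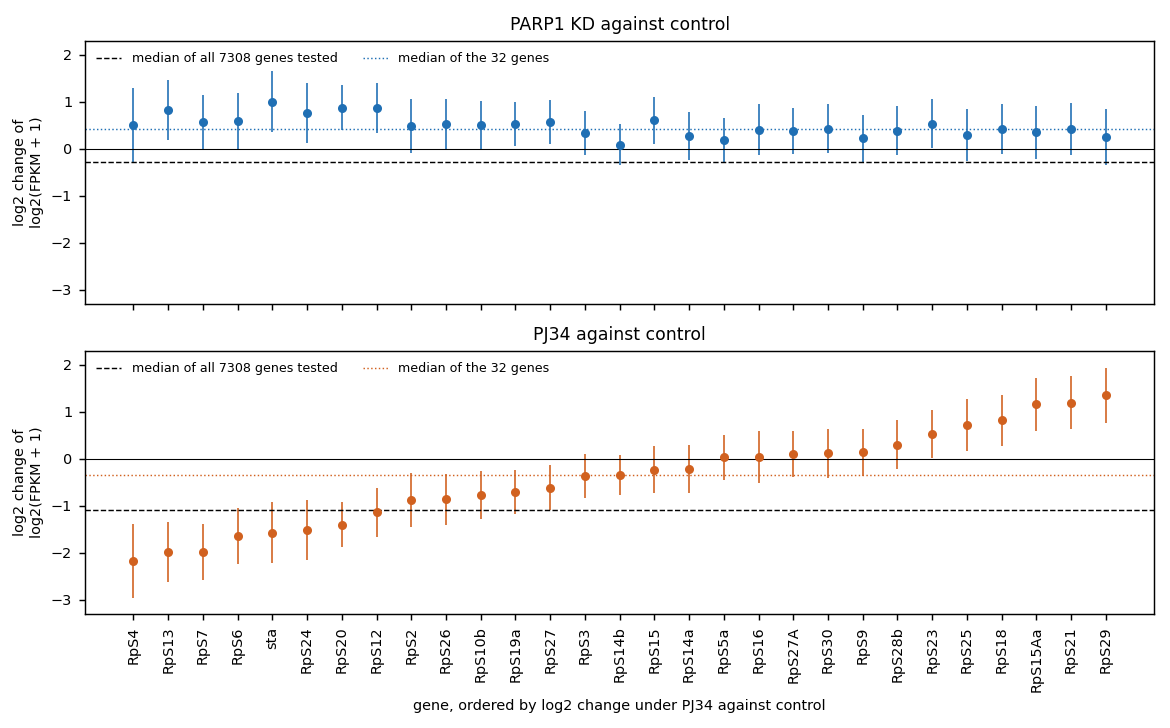
Log2 change of log2(FPKM + 1) for 29 of the 32 small subunit genes with its SE, PARP1 KD against control above and PJ34 against control below, both against the same 2 control libraries. The PARP1 KD points stay between 0.09 and 1.0, whereas the PJ34 points run from -2.18 to 1.35; dashed lines are the medians of all genes tested (-0.28 and -1.08).

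Among the 5 lowest under PJ34, RpS4 (CG11276, chromosome 3L, 13034855 to 13037012), a protein of the body, was at 3251 and 1974 FPKM in controls, 3551 and 3657 after PARP1 KD, and 1552 and 201.5 under PJ34. RpS7 (CG1883, chromosome 3R, 26032239 to 26034742), which acts in assembly of the subunit, was at 6602 and 3815, 7265 and 7573, and 2169 and 745 FPKM. In both genes the PJ34 libraries lay below every other library, and the PJ34 libraries differed from each other more than the controls did. The changes were -2.18 (SE 0.79, adjusted p = 0.1455) for RpS4 and -1.98 (SE 0.59, adjusted p = 0.1203) for RpS7.

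RpS6 (CG10944, chromosome X, 7793652 to 7795362) is the protein phosphorylated by S6 kinase, and its loss in fly larvae causes overgrowth of the blood-forming organ. Its levels were 3316 and 2488 FPKM in controls, 4144 and 4536 after PARP1 KD, and 1725 and 489 under PJ34, again without overlap, with a change of -1.64 (SE 0.59, adjusted p = 0.1455). RpS13 and sta, whose levels are given above, completed the 5 lowest at -1.98 (SE 0.64, adjusted p = 0.1297) and -1.57 (SE 0.65, adjusted p = 0.1575).

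The genes highest under PJ34 had at most 500 coding bases, as did 23 of the 32 members. Those 23 also held genes that were low under PJ34, such as RpS13 (-1.98) and RpS24 (-1.52). RpS29 (CG8495, chromosome 3R, 5603817 to 5604800) encodes a zinc-binding head protein of 56 residues, and was at 4884 and 10712 FPKM in controls, 8956 and 8317 after PARP1 KD, and 16165 and 21114 under PJ34. RpS21 (CG2986, chromosome 2L, 2856069 to 2857041), whose loss also causes overgrowth of the blood-forming organ in larvae, was at 2982 and 6343, 5721 and 5930, and 8012 and 12481 FPKM. For both, PJ34 libraries lay above all others and control library 1 was the lowest library. Changes were 1.35 (SE 0.59, adjusted p = 0.1591) and 1.20 (SE 0.56, adjusted p = 0.1635).

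RpS15Aa (CG2033, chromosome X), an early binder of ribosomal RNA in the body, was at 4035 and 7744 FPKM in controls, 7468 and 6806 after PARP1 KD, and 9634 and 16262 under PJ34. RpS18 (CG8900), a head protein near the transfer RNAs, was at 3668 and 7053, 6754 and 6844, and 7903 and 10198 FPKM. In both genes the lower PJ34 library exceeded control library 2 by less than control library 2 exceeded control library 1. Their changes were 1.16 (SE 0.57, adjusted p = 0.1694) and 0.82 (SE 0.54, adjusted p = 0.2428).

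A single library decided how many members were called. Without PJ34 library 1, 15 of 32 passed (3 higher, 12 lower), in a fit that called 69.9% of all genes and took the spread of the lone PJ34 library from the other groups. Without control library 2, RpS13 and RpS7 passed as lower, beside 4.99% of all genes. Without PJ34 library 2 none passed, beside 3.23% of all genes, and the SD over members was 0.59. Centring each library on its median gene moved the members' median change to 0.79, with 24 of 32 positive in place of 13, so the direction of the group under PJ34 depended on scaling.

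The knockdown was then set against PJ34 directly, which needs no control library for its difference. Here 2 members passed, beside 2.57% of all genes: RpS13 was higher under PARP1 KD by 2.81 (SE 0.64, adjusted p = 0.04965) and RpS20 by 2.27 (SE 0.48, adjusted p = 0.0413). In FPKM the ratio of group means was 5.53 for RpS13 and 4.60 for RpS20. Over 17 alternative settings the adjusted p ran from 1.247e-06 to 0.4282 for RpS13 and from 9.073e-05 to 0.4398 for RpS20, so neither call was firm. Without PJ34 library 1 the difference was 3.84 for RpS13 and 2.71 for RpS20, and without PJ34 library 2 it was 1.78 and 1.83. The 5 highest changes were those of RpS13, RpS4 (2.68, adjusted p = 0.09448), sta (2.57, adjusted p = 0.06685), RpS7 (2.54, adjusted p = 0.05289) and RpS24 (2.28, adjusted p = 0.08696). At an unadjusted p of at most 0.05, 13 members were higher, beside 16.4% of all genes, and 0 lower, beside 7.35%.

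At the other end, RpS29 (-1.10), RpS15Aa (-0.81), RpS21 (-0.78) and RpS25 (-0.44) were among the lowest under PARP1 KD relative to PJ34, with adjusted p between 0.2628 and 0.605. RpS25 (CG6684, chromosome 3R), a head protein that yeast and human ribosomes need for initiation at internal entry sites, was at 3832 and 8074 FPKM in controls, 7052 and 6529 after PARP1 KD, and 7701 and 10939 under PJ34. Both PARP1 KD libraries exceeded both PJ34 libraries for 23 of 32 members, beside 43.8% of all genes, and lay below both for 6, beside 17.3%. The median difference was 0.67, the same as over all genes.

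The other genes described here are given by the place of their proteins. Under PARP1 KD their changes ran from 0.09 to 0.61, and under PJ34 from -0.87 to 0.53. Proteins at the entry of the messenger RNA and around the decoding site are encoded by RpS2 (CG5920), RpS3 (CG6779), RpS9 (CG3395), RpS23 (CG8415) and RpS30 (CG15697). RpS2 was the lowest of them under PJ34, at 2714 and 907 FPKM beside 3485 and 2359 in controls (-0.87, SE 0.57). RpS23, which reaches into the decoding site, was at 6074 and 7715 FPKM under PJ34, 3653 and 6176 in controls, and 6814 and 6857 after PARP1 KD.

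RpS3, RpS9 and RpS30 had PJ34 changes of -0.37, 0.14 and 0.12, within 1 SE of 0. Near the exit of the messenger RNA are the products of RpS5a (CG8922), RpS14a (CG1524), RpS14b (CG1527), RpS26 (CG10305) and RpS28b (CG2998). Of these, RpS26 was lowest under PJ34, at 4128 and 2057 FPKM beside 4286 and 6546 in controls (-0.86, SE 0.54), with both libraries below both controls. RpS5a was at 4312 and 4338 FPKM under PJ34 and 3590 and 4996 in controls, and RpS28b at 6620 and 6693 beside 3946 and 7359, so both kept within the range of the controls.

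Of the other head proteins, RpS10b (CG14206), RpS19a (CG4464), RpS15 (CG8332), RpS16 (CG4046) and RpS27A (CG5271), changes under PJ34 ran from -0.77 for RpS10b to 0.11 for RpS27A, which is made as a fusion with ubiquitin. RpS19a was at 2479 and 1848 FPKM under PJ34, below both controls at 2854 and 4222, with PARP1 KD at 5058 and 4939. RpS16 was at 4550 and 7593 under PJ34, inside the controls at 4165 and 7803. The body protein RpS27 (CG10423) was below both controls under PJ34, at 1693 and 2288 FPKM beside 2438 and 3709. RpS15 overlaps CG4945, and RpS27A overlaps Ip259, so these levels are uncertain.

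By the place of the protein, known from structures of ribosomes, 14 of the genes encode head and 18 body or platform proteins. The median change under PJ34 was -0.10 for the head (-1.40 to 1.35) and -0.70 for the body (-2.18 to 1.20). Under PARP1 KD the medians were 0.39 and 0.50. Each place held both positive and negative changes under PJ34, and 6 of the body genes, at -2.18 to -1.52, lay below every head gene.

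Length of the coding sequence went with the PJ34 values. The 9 genes with more than 500 coding bases had a median change of -0.87 (-2.18 to 0.14), and the other 23 a median of -0.22 (-1.98 to 1.35), with Spearman's rho of -0.451 over the 32 genes. The same held between libraries of 1 group: rho with coding length was -0.585 for control library 2 minus 1 and -0.555 for PJ34 library 2 minus 1. For PARP1 KD against control it was -0.0167. The part of length in the PJ34 values was not tested; with the length trend of each library removed, no member passed for PJ34, the median change was -0.53, and the SD over members was 0.90.

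A group of 12 members hold snoRNA genes inside them, RNAs that guide modification of ribosomal RNA. RpS5a holds 14, RpS7 holds 7 and RpS16 holds 5 in the newer annotation. Their median change was -0.97 under PJ34, beside -0.28 for the other 20, and 0.46 beside 0.43 under PARP1 KD. The genes lie on all large chromosome arms, with 9 on X, 8 on 3R, 6 on 2R, 5 on 2L and 4 on 3L. Median PJ34 changes per arm lay between -0.86 on 2L and 0.29 on 2R, and PARP1 KD medians between 0.38 and 0.48.

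The differences inside the control pair and inside the PJ34 pair resembled each other, although these pairs share no library. Over the 32 genes, control library 2 minus 1 and PJ34 library 2 minus 1 gave Pearson's r of 0.888 and Spearman's rho of 0.868. RpS4 was lower in the second library of both pairs (0.607-fold in controls, 0.130-fold under PJ34), and RpS29 higher in both (2.19-fold and 1.31-fold). The exception was sta, higher in control library 2 (1.31-fold) and lower in PJ34 library 2 (0.230-fold). For the 51 large subunit genes r was 0.884, for all genes 0.539 (rho 0.649), and for other short abundant genes 0.0389. Among other lists described below it was 0.802 for mitochondrial small subunit genes, 0.701 for TOR and S6 kinase genes, 0.693 for assembly factors and 0.339 for initiation factors. The points of such a correlation share libraries and transcript lengths, and the values are a description.

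**Figure D3:**
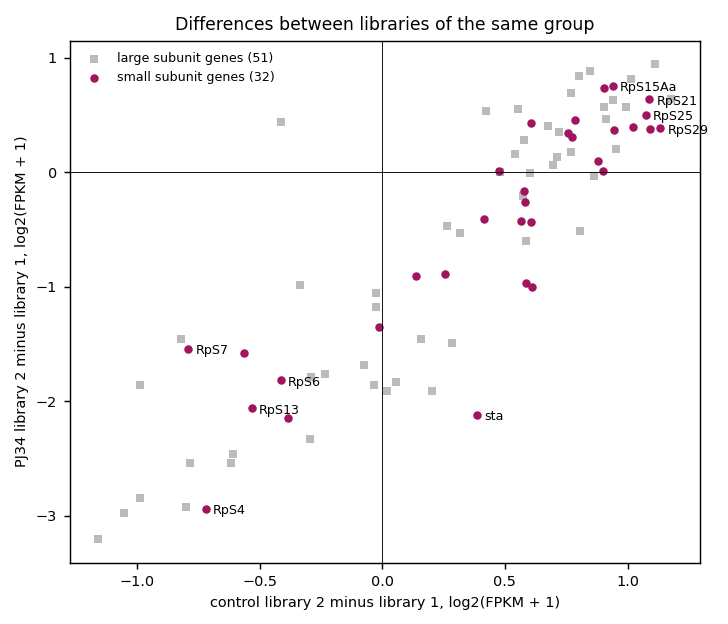
Difference in log2(FPKM + 1) between library 2 and library 1 of the control group (horizontal) and of the PJ34 group (vertical); 32 small subunit genes in purple, 51 large subunit genes in grey squares. Among small subunit genes, RpS4 lies toward the lower left (-0.72 and -2.94) and RpS15Aa toward the upper right (0.94 and 0.76), with sta apart at 0.38 and -2.12. Some large subunit genes, such as RpL3 and RpL38, lie further out.

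Copies of several genes were compared, with the reservation that reads of near-identical copies can be assigned to either. RpS14a and RpS14b lie 223 bases apart on X, each with 453 coding bases, and were both abundant: RpS14a at 1936 and 4124 FPKM in controls, 3452 and 3393 after PARP1 KD, and 2129 and 2769 under PJ34, and RpS14b at 1125 and 1679, 1571 and 1367, and 1147 and 1025. RpS14a held between 63.3% (control library 1) and 73.0% (PJ34 library 2) of the pair, with no group set apart from the others.

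In the other pairs 1 copy held nearly all of the FPKM. RpS5b stayed between 2.59 and 4.74 FPKM, RpS10a between 0.959 and 2.68, and RpS19b between 3.55 and 10.8, and RpS28a was listed at 0 in all 6 libraries. RpS15Ab was higher, at 176 and 193 FPKM in controls, 259 and 240 after PARP1 KD, and 207 and 357 under PJ34, which left RpS15Aa with 95.8% to 97.9% of its pair. RpS3A (CG2168, chromosome 4), the remaining gene of the subunit in this table, was at 2266 and 1968 FPKM in controls, 2397 and 1924 after PARP1 KD, and 1935 and 1147 under PJ34, with changes of 0.02 (SE 0.46) and -0.50 (SE 0.46).

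Transcripts of a gene were compared by their share of its summed FPKM, which does not depend on the scale of a library. Among 29 transcripts of the small subunit genes tested, none passed under PARP1 KD or PJ34, beside 0.0% of all transcripts in each case. At an unadjusted p of at most 0.05 there were 6 under PARP1 KD and 1 under PJ34, beside 12.9% and 5.28% of all transcripts. The 6 were RpS9-RA and RpS9-RD, RpS30-RA and RpS30-RB, sta-RB, and RpS4-RA. Shares of a gene add up to the whole, so rows of the same gene are not separate changes.

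RpS9, which encodes a protein at the entry of the messenger RNA, had the lowest p of these transcripts. Transcript RpS9-RD starts 237 bases downstream of RpS9-RA, and held 0% and 0.00813% of the gene in controls (traces are given as 0%), 14.4% and 28.8% after PARP1 KD, and 0% in both PJ34 libraries. In FPKM this was at most 0.470 in controls and PJ34 libraries and 769.6 and 1606 after PARP1 KD. RpS9-RD passed the filter of a mean share of at least 1% only through the PARP1 KD libraries, so its p-value is not independent of that filter. The unadjusted p was 0.00168 and the adjusted p was 0.1286 (limma on arcsine square roots), while the sum over the gene was at 5336 and 5577 FPKM, inside the range of the controls (3797 and 5786).

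RpS30-RB, which starts 299 bases downstream of RpS30-RA, held 0% and 9.35% of RpS30 in controls, 20.8% and 26.5% after PARP1 KD, and 0% in both PJ34 libraries (adjusted p = 0.3628 for PARP1 KD). Transcript sta-RD, with its start 393 bases downstream, held 2.11% and 2.09% in controls, 7.72% and 32.4% after PARP1 KD, and 0.268% and 0.312% under PJ34 (adjusted p = 0.3915). In both genes the share was higher in the knockdown than in every other library, but the knockdown libraries differed from each other.

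RpS18-RA, 85 bases downstream of RpS18-RB, held 42.2% and 57.6% of RpS18 in controls, 62.8% and 70.5% after PARP1 KD, and 40.4% and 40.1% under PJ34. RpS10b-RC, 19 bases downstream, held 3.52% and 3.43% in controls, 5.91% and 22.5% after PARP1 KD, and 3.05% and 3.01% under PJ34. RpS15Aa-RC, which has the first start of its gene, held 11.0% and 8.42% in controls, 6.99% and 5.91% after PARP1 KD, and 9.82% and 9.89% under PJ34. RpS21-RA and RpS21-RE span the same bases, and RA held 29.5% and 40.9% in controls, 20.1% and 26.1% after PARP1 KD, and 61.2% and 66.4% under PJ34 (adjusted p = 0.8576 for PJ34). For RpS21 the 3 groups did not overlap.

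**Figure D4:**
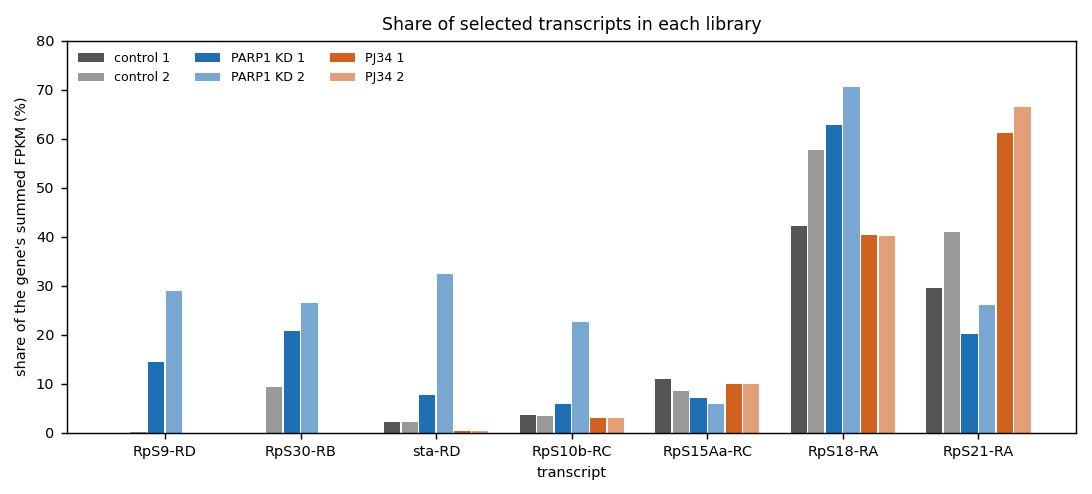
Share of the summed FPKM of its gene held by each of 7 transcripts, with a bar for each library (darker for library 1, lighter for library 2). RpS9-RD stands at 14.4% and 28.8% after PARP1 KD and at or near 0% elsewhere, and RpS21-RA at 61.2% and 66.4% under PJ34.

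As a summary made after these shares were seen, the shares of all transcripts starting at least 50 bases downstream of the first start were added up for each gene. The sum reached a mean of 1% for 6 members. It was higher in both PARP1 KD libraries than in both controls for 5 of the 6 (sta, RpS30, RpS9, RpS18 and RpS15Aa), beside 45.2% of 1301 genes, and lower in both PJ34 libraries for 3 of 6, beside 18.2%. These were sta, RpS18 and RpS9, and for RpS9 all the shares compared were traces at or near 0%. RpS9 reached the mean of 1% only through its PARP1 KD libraries, so its higher share there was fixed by that filter.

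Other genes were described beside the small subunit from lists of names. Large subunit genes (51 tested) had medians of 0.48 under PARP1 KD and -0.67 under PJ34, with an SD of 1.37 under PJ34, and 27 of them (52.9%) had both PARP1 KD libraries above both controls. None of the 51 passed against control, and 5 passed as higher under PARP1 KD than under PJ34. Mitochondrial small subunit genes (25) had medians of 0.19 and 0.28.

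Genes of other transcripts that were short (under 1000 bases) and abundant (mean FPKM of at least 100) numbered 282. That mean took in all 6 libraries, so a gene high in a single group could enter through it. The PJ34 values of this list are open to that selection. Under PARP1 KD their median change was 0.22, and 118 (41.8%) had both knockdown libraries above both controls. For the 144 of them under 700 bases this was 0.34 and 54.2%, and for the 38 with a mean FPKM of at least 500 it was 0.1 and 31.6%. The small subunit genes, with a median length of 708.5 bases, had 0.43 and 56.2%. Under PJ34 the 282 genes had a median of 0.57 and 148 of them (52.5%) lay above both controls, beside 5 of 32 small subunit genes. The shorter and the more abundant subset had PJ34 medians of 0.85 and 0.36. Libraries of the 282 genes differed less inside the PJ34 pair (SD 0.66) than those of the small subunit genes (SD 1.02), and more inside the control pair (SD 1.09 beside 0.57). The 5 most abundant were Nplp2, TotM, eEF5, His4r and MtnA. TotM, a secreted stress protein, was at 23.8 and 49.3 FPKM in controls, 40.8 and 39.5 after PARP1 KD, and 12990 and 20231 under PJ34, a rise of 8.84 (SE 0.47, adjusted p = 1.861e-05). TotM reached the mean of 100 FPKM only through the PJ34 libraries, so its rise does not describe the list. Changes under PJ34 were 0.38 for Nplp2, 1.27 for eEF5, 1.85 for His4r, which has many near-identical copies, and 1.21 for MtnA, and none of the 4 passed.

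Genes that work with the subunit had lower medians under PJ34 than the small subunit genes, beside -1.08 for all genes. Their transcripts were also longer. Median lengths were 1286.2 bases for elongation factors, 1359.5 for initiation factors, 1782 for assembly factors and 3896 for TOR and S6 kinase genes. Small subunit genes had 708.5, and the part of length in these medians was not tested. Elongation factors (6 tested) had a median of 0.29 under PARP1 KD and -1.77 under PJ34. Among them eEF1alpha1, which brings transfer RNAs to the ribosome, was at 7139 and 4521 FPKM in controls, 6814 and 7008 after PARP1 KD, and 2910 and 401 under PJ34, an order of libraries like that of RpS4. Initiation factors that bind the small subunit (19) had medians of 0.10 and -1.32, with eIF1 at 1.48 and eIF3g1 at -2.30 under PJ34. The highest PARP1 KD change among them, eIF5 at 3.16, came from a gene listed at 0 in control library 1.

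Assembly factors of the small subunit (12) had medians of -0.33 and -1.67. TOR and S6 kinase genes (13) had medians of -0.43 and -1.23, among them S6k at -1.22 and -1.72, and Thor, the fly 4E-BP that restrains translation, at 0.38 and -1.93. Promoter factors of ribosomal protein genes (Trf2, M1BP, Dref and Tbp) had medians of -0.50 and -1.35. In none of these lists did a gene pass against control. Xrp1, which is induced when ribosomal proteins are lacking in fly cells, was at 368 and 160 FPKM in controls, 178 and 150 after PARP1 KD, and 109 and 25.3 under PJ34. Its partner Irbp18 was at 49.6 and 55.4, 35.2 and 26.5, and 155 and 263 FPKM, and was lower under PARP1 KD than under PJ34 by a passing difference of -2.68 (SE 0.47, adjusted p = 0.02365).

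**Figure D5:**
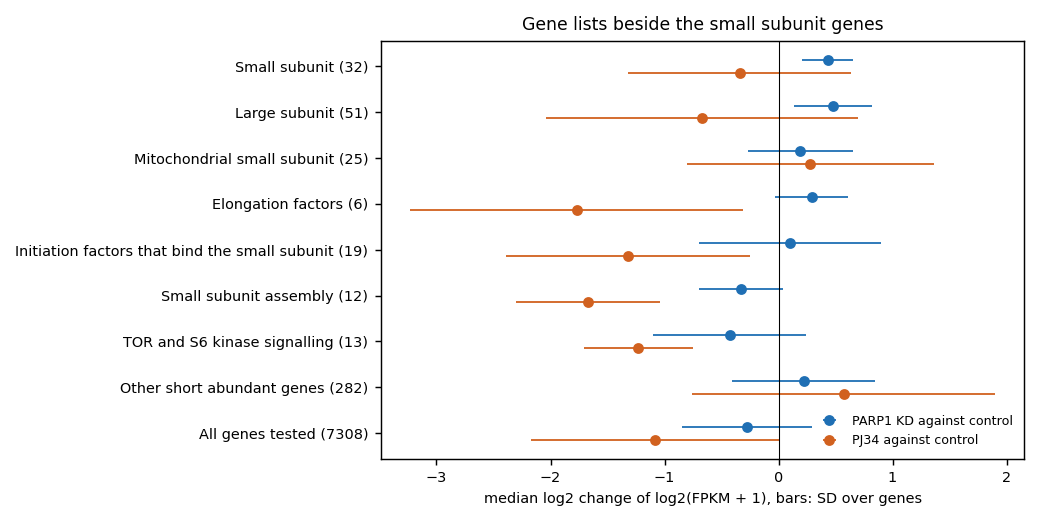
Median log2 change of each gene list against control for PARP1 KD (blue) and PJ34 (orange), with bars of 1 SD over the genes and the number of genes tested in brackets. The small subunit medians are 0.43 and -0.34, and those of all 7308 genes are -0.28 and -1.08.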

How the data were processed

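RNA from S2 cells was sequenced as 6 libraries. Per the submitters' processing notes, reads passed through CASAVA, TopHat2 2.0.10 with Bowtie2 2.1.0.0, Cufflinks 2.1.1 and Cuffdiff on the dm3 build. The deposited values are FPKM per annotated transcript, scaled by the authors for length of the transcript and for library size; they hold no fragment totals, so no counting interval is given. Columns of treated libraries show the group but not the dose.

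FPKM were summed per gene (21081 rows, 14012 genes, 13636 with a current symbol). Coordinates are those of the deposited table, and coding lengths, snoRNA genes and strands are from Ensembl release 115. A mean FPKM of 1 or more was required for testing (7308 genes). The fit was on log2(FPKM + 1), which understates changes of low genes, with 1 mean per group in limma 3.58.1 under R 4.3.3, an intensity trend and Benjamini-Hochberg adjustment at 0.05 over all genes. Transcript shares (mean share of at least 1%, 6117 transcripts) were tested likewise as arcsine square roots. Python 3.11.15, pandas 2.3.3, scipy 1.17.1 and matplotlib 3.10.9 served for descriptions and figures. Values of overlapping genes and near-identical copies are uncertain. The labels do not say that libraries of a group were separate cultures, so p-values measure only the spread between these libraries, and libraries of a treatment differ by dose.

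The 5 largest positive and negative changes per comparison, gene copies, Parp1 and transcripts past 5% of their gene are named. Nob1, Ltv1, pno1 and Bms1 of the assembly list were not matched. For 3 members, single values are not reported here; counts and medians hold all 32. Members and lists were chosen with earlier results of these data known. Alternatives were pseudocounts of 0.1 and 5, other scalings, other filters, 4 libraries only, no intensity trend, unadjusted p and leaving out each library. Transcript rows and summed downstream shares were added after seeing the data.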

Additional observations from a re-analysis of the deposited data

Results flagged for a closer look

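RpS13 and RpS20 stood out because their effects differed between the treatments, by the test of PARP1 KD against PJ34. RpS13 was higher under PARP1 KD by 2.81 on the log2(FPKM + 1) scale (SE 0.64, limma adjusted p = 0.04965) and RpS20 by 2.27 (SE 0.48, adjusted p = 0.0413). In both genes each of the 2 PARP1 KD libraries exceeded each of the 2 PJ34 libraries. Over 17 alternative settings RpS13 passed in 7 (adjusted p from 1.247e-06 to 0.4282) and RpS20 in 8 (from 9.073e-05 to 0.4398). Both treatments were set against the same 2 control libraries, and the direct difference does not use them except for the shared spread.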

How the results depend on the processing

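The count of small subunit genes passing for PARP1 KD against control was 0 under all settings run. Their median change there (0.43) was 0.05 with quantile normalization, 0.82 with median centring and -0.05 when libraries were centred on the small subunit median, and from 0.14 (without control library 1) to 0.81 (without control library 2) when a library was left out. Centring on the small subunit median removes the members' common shift by construction, so in all comparisons medians under that setting do not bear on direction. For PJ34 against control the count was 8 at an unadjusted p of at most 0.05, and from 0 to 15 with a library left out (15 without PJ34 library 1, 2 without control library 2). The median change (-0.34) was 0.79 with median centring, 0.21 when centred on the small subunit median, and from -0.62 to -0.0042 with a library left out.

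For PARP1 KD against PJ34, 2 genes passed. None passed with a pseudocount of 0.1, quantile normalization, median centring, division by summed FPKM, no filter on low values or no intensity trend, that is 0 genes in each. Of all genes, 0.0505% to 7.59% passed under these settings. With a mean FPKM of at least 5 (2.0% of all genes passing), and with transcript rows in place of gene sums (added after seeing the data), the count was 1. It was 4 when centred on the small subunit median, beside 11.4% of all genes. It was 8 with the length trend removed (18.9% of all genes) or only the 4 libraries compared (6.25%). At an unadjusted p of at most 0.05 it was 13, beside 16.4% of all genes higher and 7.35% lower. With a library left out the median difference lay between 0.6 and 0.68, whereas the number of genes passing changed with the library left out. The median difference (0.67) was 0.31 with quantile normalization, -0.07 with median centring and -0.35 when centred on the small subunit median.

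Transcript shares passing under PARP1 KD (0) were 6 at an unadjusted p of at most 0.05 and from 0 to 3 with a library left out (2 without control library 2, 3 without PARP1 KD library 1). Under PJ34 (0) there was 1 at an unadjusted p. Why these values differed was not tested. Of 442 values of single genes under the alternatives, 389 kept their side of the threshold and direction, 19 no longer passed, 34 newly passed and 0 turned direction. The 19 were all of RpS13 and RpS20 for PARP1 KD against PJ34. A fit without a library takes the spread of a lone library from the other groups. No paired analysis was possible because the labels number only the control libraries as 1 and 2, and give each treated library the number 1 within its dose. The numbers of treated libraries used here are those of the table's columns, which carry no dose and pair no libraries. No member was at 0 FPKM in any library, and what depth limits is unknown without fragment totals.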
